A study of Mus musculus with 2 samples.

Results

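The genes described here make the 2 kinds of chain of adult mouse haemoglobin. The named set held 5 genes, the alpha-globin genes Hba-a1 (ENSMUSG00000069919.8) and Hba-a2 (ENSMUSG00000069917.8), the beta-globin genes Hbb-bs (ENSMUSG00000052305.7) and Hbb-bt (ENSMUSG00000073940.4), and Ahsp, which encodes a chaperone of free alpha chains. They were chosen by symbol, not by a measured value. Of the 5 named genes, 4 were matched among 56748 genes in both matrices, and Ahsp was not analysed here. The cells were lineage-depleted bone marrow cells of C57BL/6 mice, profiled by droplet single-cell RNA sequencing of transcript 3′ ends. One library came from wild-type (WT) mice and one from Nat10 cKO mice, in which the gene for an RNA acetyltransferase is deleted conditionally. The series text speaks of 5 mice, WT or cKO, without tying any cell to a mouse, and the age of the mice and the driver of the deletion are not given in the sources used here.

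With 1 library per genotype there is no replicate check of any difference between them. All intervals below are 95% intervals that cover counting error only, since cells of 1 library are not replicates. Haemoglobin carries oxygen in red cells and joins a pair of alpha chains and a pair of beta chains around haem. In bone marrow the adult globin genes are switched on as erythroid progenitors mature into erythroblasts, under factors such as GATA1, KLF1 and TAL1, until globin messages dominate the RNA of the cell. Because they are so abundant, globin messages are also a common source of free RNA, which enters droplets with cells that do not make them.

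The 4 genes sit in 2 clusters, alpha on chromosome 11 and beta on chromosome 7. Their promoters are shown because the genes differed in balance between stages (below), and because the near-identity of the alpha copies bears on how their reads can be told apart. Each line gives the 250 bases before the start of the gene from RefSeq on GRCm38.p6, read 5′ to 3′ on the gene's strand, which is another build than the mm39 of the counts. Capitals mark GATAA (the core bound by GATA factors), CACCC (bound by KLF factors), CCAAT and ATATAA, searched on both strands.
Hba-a1, chr11:32283422-32283671, plus strand: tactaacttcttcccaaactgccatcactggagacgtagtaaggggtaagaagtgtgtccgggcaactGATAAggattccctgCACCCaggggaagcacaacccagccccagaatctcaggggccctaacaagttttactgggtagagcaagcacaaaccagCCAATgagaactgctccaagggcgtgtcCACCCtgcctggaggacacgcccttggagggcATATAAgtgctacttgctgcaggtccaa
Hba-a2, chr11:32296242-32296491, plus strand: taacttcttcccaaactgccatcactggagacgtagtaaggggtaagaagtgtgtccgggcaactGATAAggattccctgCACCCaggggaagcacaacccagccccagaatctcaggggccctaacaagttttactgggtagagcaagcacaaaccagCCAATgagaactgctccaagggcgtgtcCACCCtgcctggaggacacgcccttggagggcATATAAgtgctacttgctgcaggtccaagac
Hbb-bs, chr7:103827929-103828178, minus strand: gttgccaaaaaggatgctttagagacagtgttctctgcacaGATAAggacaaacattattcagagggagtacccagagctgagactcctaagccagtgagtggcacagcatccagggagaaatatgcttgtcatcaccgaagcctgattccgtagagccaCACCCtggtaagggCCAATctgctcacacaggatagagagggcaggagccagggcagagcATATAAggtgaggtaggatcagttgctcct
Hbb-bt, chr7:103813924-103814173, minus strand: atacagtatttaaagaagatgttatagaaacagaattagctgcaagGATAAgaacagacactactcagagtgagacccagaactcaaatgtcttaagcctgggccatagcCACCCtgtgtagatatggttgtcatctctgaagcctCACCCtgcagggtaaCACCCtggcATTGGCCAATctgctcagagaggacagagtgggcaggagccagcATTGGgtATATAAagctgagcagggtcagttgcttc

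Each of the 4 promoters held each of the 4 motifs. Among 32841 promoters of the same length, 22.6% held GATAA, 52.0% CACCC, 33.9% CCAAT and 9.10% ATATAA on either strand, and 0.466% held all 4. The alpha promoters were one sequence shifted by the position of the start, with 97.6% identity and no mismatch. The beta promoters had 70.9% identity. Hbb-bt had 3 copies of CACCC and Hbb-bs 1, and only Hbb-bt had CCAAT on the reverse strand, once directly beside the forward copy with no shared base. A match describes letters and is not a bound site. In the transcripts, 121 of the 211 windows of 90 bases in the last 300 bases of Hba-a1 also occurred in Hba-a2, and 52 of 211 windows of Hbb-bs occurred in Hbb-bt. Reads from shared windows cannot be assigned to one copy, so the split between copies is uncertain, more so for alpha than for beta.

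The WT library held 15848 barcodes and the cKO library 13479, with 67 barcode sequences found in both. After removal of barcodes under 1000 unique molecular identifiers (UMIs, counts of captured transcripts), under 500 genes or over 10% mitochondrial UMIs there were 12537 and 11239, and 11945 and 10695 were kept after calling doublets. The median depth was 18315 UMIs in WT and 21450 in cKO. Nat10 itself was at 47.0 counts per 1000000 UMIs (CPM) in WT and 38.7 in cKO. The labels do not give the deleted part of Nat10, so reads from its 3′ end may not check the deletion. Cell classes were rebuilt from marker genes with all globin genes left out of the clustering, and a class is called "like" its markers because the names are not the study's own.

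Adult haemoglobin, the sum of the 4 genes, made up 0.598% of all UMIs of kept WT cells and 0.358% of those of kept cKO cells. Hbb-bs led with 2264 CPM in WT and 1367 in cKO, followed by Hba-a1 with 2085 and 1213, Hbb-bt with 1125 and 669, and Hba-a2 with 508 and 335. The counts were held by few cells. In WT, 350 of the 11945 cells held 50% of all haemoglobin UMIs, and in cKO 289 of 10695 did. The top 10% of cells held 87.3% and 82.4%. In the richest cell of each library the 4 genes were 85.8% of its UMIs in WT and 83.9% in cKO.

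Erythroblast-like cells had the highest level of the named classes in both libraries. Summed over 786 WT cells, the 4 genes were at 55707 CPM (55602 to 55812), and over 405 cKO cells at 58965 CPM (58794 to 59136). They held 68.8% of the haemoglobin UMIs of WT and 50.3% of those of cKO. The median erythroblast-like cell had 1151 haemoglobin UMIs in WT and 1002 in cKO, with the 10th to 90th percentile at 252.5 to 2563 and 113.4 to 2131. Erythroid progenitor-like cells were far lower, at 3798 CPM in 2631 WT cells and 2682 CPM in 3913 cKO cells. Their median cell had 33 haemoglobin UMIs in WT and 26 in cKO, but the 90th percentile reached 454 and 262, so the class spanned cells with little and with much haemoglobin.

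**Figure D1:**
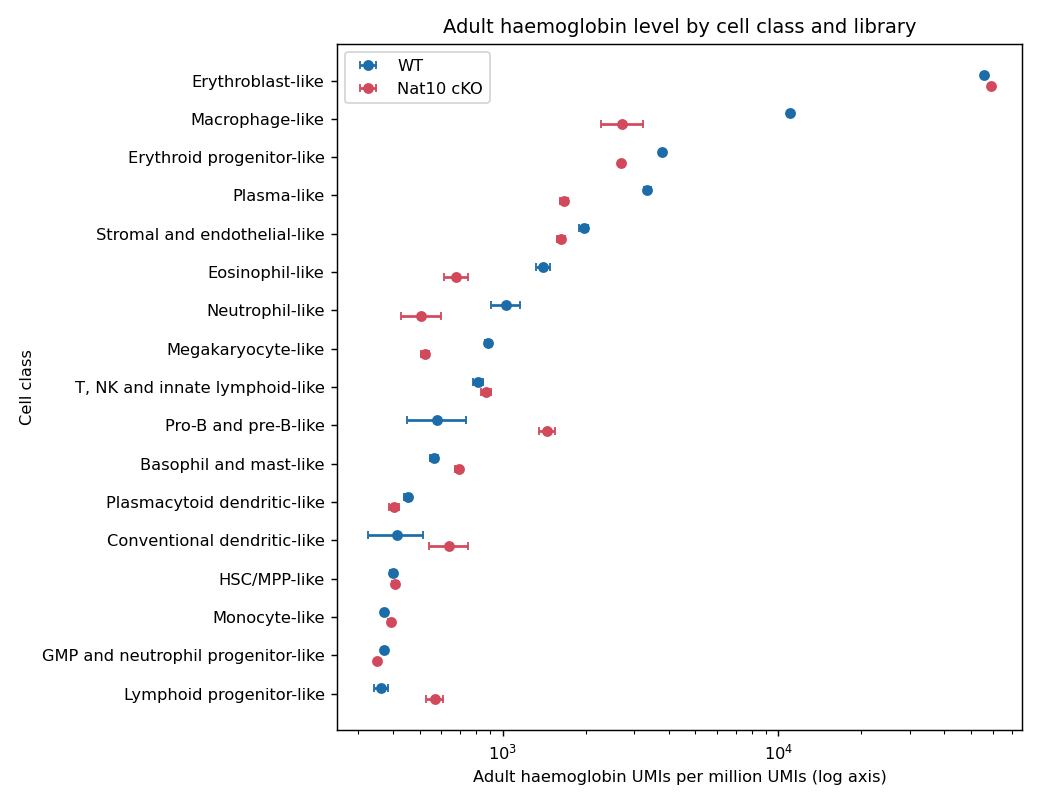
Adult haemoglobin level in CPM (log axis) in each cell class, with exact Poisson 95% intervals for counting error, WT in blue and Nat10 cKO in red. Erythroblast-like cells lie at 55707 CPM in WT and 58965 in cKO, and HSC/MPP-like, monocyte-like and GMP-like cells of both libraries lie between 350 and 407 CPM.

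The haemoglobin of the whole cKO library was lower, and less so with the mix of clusters held alike. Set as cKO over WT, the log2 ratio over all kept cells was -0.74, while with the cKO clusters reweighted to the WT mix it was -0.14. Erythroblast-like cells were 6.58% of kept WT cells and 3.79% of kept cKO cells, and erythroid progenitor-like cells were 22.0% and 36.6%. The sort by lineage depletion acts on these shares, and with 1 library per genotype a change in the marrow and a difference in preparation cannot be told apart.

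Within erythroblast-like cells the genes differed little between the libraries. Hba-a1 was at 18653 CPM in WT and 18523 in cKO, a log2 ratio of -0.01. Hba-a2 was at 4599 and 5108 CPM, a log2 ratio of 0.15. Hbb-bs was at 22598 and 25138 CPM, also 0.15, and Hbb-bt at 9857 and 10195 CPM, 0.05. For the sum the log2 ratio was 0.08 (0.08 to 0.09). Its sign was not stable. It was -0.31 with called doublets kept, -0.27 with a looser or a stricter barcode filter, and between -0.17 and -0.13 with the 3 other clusterings. Cells were clustered anew in each of these, and the class grew, for example to 1485 WT and 1161 cKO cells with doublets kept. There it held a cluster of 227 WT and 291 cKO cells with Sox5os4 and Aspn among its leading genes. In the main clustering the cluster led by Sox5os4 and Aspn was unnamed, with haemoglobin at 6438 CPM in WT and 4467 in cKO. The class thus moved its boundary with unnamed cells too, not only with the other erythroid class. The choice itself and the moved boundaries cannot be told apart. In the main clustering, without the 50 WT and 39 cKO cells of a shallow cluster (stage 9 below), the log2 ratio of the sum was 0.02.

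In erythroid progenitor-like cells all 4 genes were lower in cKO. Hba-a1 was at 1475 CPM in WT and 989.7 in cKO (log2 ratio -0.58), Hba-a2 at 315 and 259 (-0.28), Hbb-bs at 1169 and 889.7 (-0.39) and Hbb-bt at 839 and 543 (-0.63). For the sum the log2 ratio was -0.50, and 0.02 with the WT mix of clusters. With that mix Hba-a1 and Hbb-bt stayed lower in cKO while Hba-a2 and Hbb-bs turned higher, so the sum joins genes of opposite sign. The cause of the lower values was not tested. Of the progenitor-like cells, 59.1% in cKO and 46.0% in WT lay in the 4 earliest clusters of ordinary depth.

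None of the 4 genes passed a log2 ratio of 1 in either direction in either class. Among 5735 genes measured in erythroblast-like cells, 0.0523% were past it with cKO higher and 0.0697% with cKO lower, and among 6351 genes in erythroid progenitor-like cells 0.0315% and 0.126%. The median log2 ratio over all genes was -0.06 and -0.08. The genes past the fold in erythroblast-like cells were Igkc, Ighm and Slfn14 with cKO higher and Gm49980, Ly6c2, Nfkbia and Elane with cKO lower. In progenitor-like cells Igkc and Ighm were the 2 with cKO higher, and Gpc4, Eda, H2-Q7, Pdgfd, Sox6, Camk1d, Rn18s-rs5 and Hipk2 the 8 with cKO lower.

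Ordering the 9 erythroid clusters by the summed level of 19 erythroblast markers, none of them a globin gene, showed the rise of the 4 genes. In WT the sum was at 362 CPM in stage 1, 387 in stage 2, 671 in stage 4, 1008 in stage 5, 3855 in stage 6, 14188 in stage 7 and 55503 in stage 8. In cKO it was at 328, 471, 621, 1177, 4046, 15941 and 56090 CPM in the same stages. Stage 1 of both libraries and stage 2 of WT lay near the 350 to 407 CPM of HSC/MPP-like, monocyte-like and GMP-like cells, while stage 2 of cKO was above them. In that stage 3 cKO cells held 15.5% of the haemoglobin UMIs. Without them it was at 400.0 CPM, inside that range, and with all cells the median cell had 18 haemoglobin UMIs in both libraries. Stage 2 was deeper than those classes, with medians of 46899.5 UMIs in WT and 48189.5 in cKO. Non-erythroid cells of at least 40000 UMIs, with median depths of 46944 and 46361, had medians of 16 and 15 haemoglobin UMIs. At like depth the median cell of stage 2 was thus slightly higher in both libraries. The steep rise began between stages 5 and 6 in both libraries. Stages 3 and 9 were shallow clusters, with medians of 2131 and 2608.5 UMIs per cell in WT and 2825 and 2341 in cKO, and are given apart.

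**Figure D2:**
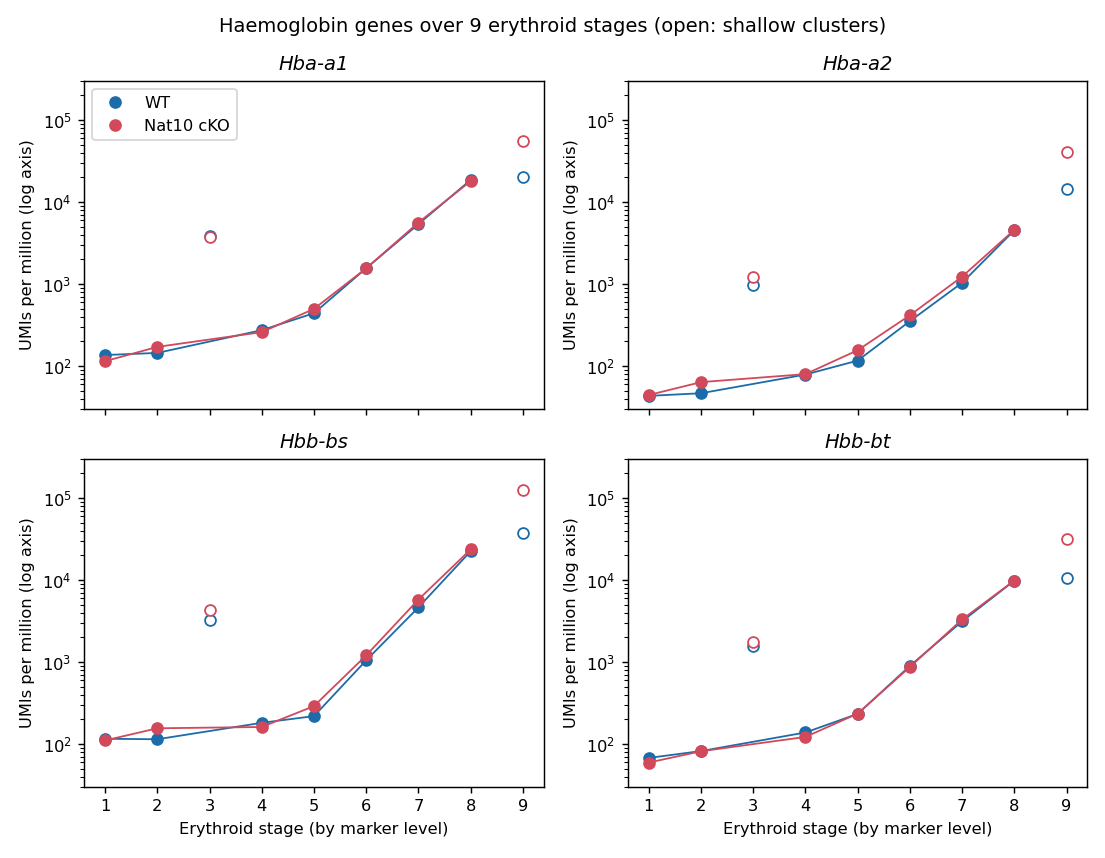
Level of each gene in CPM (log axis) over the 9 erythroid clusters in order of erythroblast marker level, WT in blue and Nat10 cKO in red, with the 2 shallow clusters as open circles. In both libraries every gene was at its highest level among the ordinary clusters in stage 8, where Hbb-bs was at 22485 CPM in WT and 23658 in cKO.

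In each progenitor-like stage the 2 libraries were closer than over that class as a whole, where the log2 ratio was -0.50. Of the erythroblast-like stages, stage 8 was closer than its class, at 0.08, but the shallow stage 9 was not, at 1.62. The log2 ratio of the sum was -0.14 in stage 1, 0.28 in stage 2, -0.11 in stage 4, 0.22 in stage 5, 0.07 in stage 6, 0.17 in stage 7 and 0.02 in stage 8. Without the 3 cells richest in haemoglobin of each library and stage, a comparison added after the data were seen, the ratio turned to 0.08 in stage 4, where 3 cells held 18.0% in WT and 7.23% in cKO. It was 0.06 in stage 2, 0.0018 in stage 8 and -0.15, 0.25, 0.03 and 0.14 in stages 1, 5, 6 and 7. Hba-a2 was higher in cKO in 7 of these 7 stages, Hbb-bs in 5, Hba-a1 in 3 and Hbb-bt in 3. In the shallow stage 3, led by Acta1, Sphk1 and Mt2, the sum was at 9620 CPM in WT and 11130 in cKO, although its median cell had 7 haemoglobin UMIs in each library. In the shallow stage 9, led by Slfn14, Tmcc2 and Reln, the sum was at 82201 CPM in 50 WT cells and 251979 CPM in 39 cKO cells. The median cell of stage 9 had 99.5 haemoglobin UMIs in WT and 96 in cKO, and 3 cells held 51.9% and 47.2% of its haemoglobin UMIs. Without those 3 cells of each library the sum was at 44186 CPM in WT and 166245 in cKO. Cells with at least 1000 haemoglobin UMIs numbered 3 in WT and 8 in cKO.

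Because clusters can be cut differently, erythroid cells with at least 5000 UMIs were also compared within 7 ranges of summed erythroblast marker CPM, a comparison chosen after the data were seen. Below 1000 marker CPM haemoglobin was at 365 CPM in WT and 360 in cKO. Between 4000 and 6000 it was at 14820 and 15775 CPM, between 6000 and 8000 at 31203 and 38373, between 8000 and 10000 at 51722 and 59187, and from 10000 up at 102817 and 116643. In the 4 upper ranges the log2 ratio was 0.09, 0.30, 0.19 and 0.18, with cKO higher. The median cell gave 0.03, 0.23, 0.18 and 0.10. From 1000 to 2000 the sum was at 652 CPM in WT and 791 in cKO, a log2 ratio of 0.28, and 0.11 for the median cell. From 2000 to 4000 it was lower in cKO, at 3874 and 3571 CPM, a log2 ratio of -0.12. Fewer cKO cells reached the top range, 63 against 206. Cells of the upper ranges were shallower in cKO, with medians of 16758 UMIs in the top range against 20112 in WT, and the part of depth in the ratio was not tested.

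**Figure D3:**
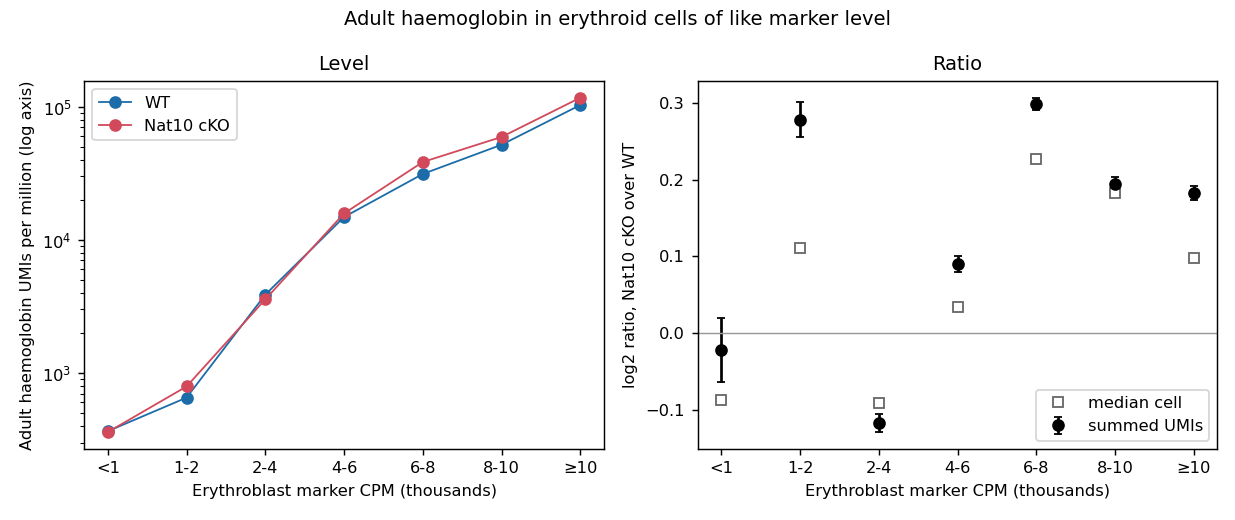
Left, adult haemoglobin level in CPM (log axis) in erythroid cells of 7 ranges of erythroblast marker CPM, WT in blue and Nat10 cKO in red. Right, the log2 ratio of cKO over WT from summed UMIs (filled, with 95% counting interval) and from the median cell (open squares), which is above 0 in the 4 upper ranges and -0.12 from the sums between 2000 and 4000.

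The balance between the beta genes changed as haemoglobin rose. In WT, Hbb-bt made up 51.6% of beta UMIs in stage 5 (50.4% to 52.8%), 46.1% in stage 6, 40.3% in stage 7, 30.5% in stage 8 and 22.3% in stage 9. In cKO it made up 44.8%, 42.0%, 36.4%, 29.4% and 20.3%. Before that, in stages 1, 2 and 4, it was 36.9%, 41.8% and 43.3% in WT and 34.9%, 34.4% and 43.1% in cKO. Among stages of ordinary depth the share was thus highest in stage 5, near equal in WT and with Hbb-bs ahead in cKO. It then fell to a larger excess of Hbb-bs in the cells with the most haemoglobin. Over the marker ranges Hbb-bs led throughout, with Hbb-bt at most 46.3% in WT and 42.3% in cKO. Among single cells with at least 50 beta UMIs, the WT median was 58.7% in 25 of 304 cells of stage 5 and 31.2% in 721 of 736 of stage 8. In cKO it was 46.0% in 82 of 835 cells and 30.6% in 350 of 366. The cut is on the beta UMIs themselves and kept few cells of stage 5, so these medians are no separate check.

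The share of Hbb-bt was lower in cKO in 9 of 9 stages, with intervals apart in 7, and in 7 of 7 marker ranges, with intervals apart in 6. The ranges were cut from the cells of the stages and are no separate count. Stage 1 and the range below 1000 marker CPM lay near the level of HSC/MPP-like, monocyte-like and GMP-like cells. Shares there may describe free RNA. The differences in the ranges ran from 1.11 to 4.49 percentage points. The widest among the stages, 7.39 points in stage 2, came to 41.6% in WT and 39.9% in cKO without the 3 richest cells of each library, and the share stayed lower in cKO in 9 of 9 stages without such cells. In the range from 4000 to 6000 marker CPM the share was 40.5% in WT and 36.0% in cKO. Pooled over non-erythroid cells with under 100 haemoglobin UMIs it was not lower, at 37.2% in WT and 38.0% in cKO, but the classes differed. It was lower in cKO in basophil and mast-like (36.1% and 32.8%), GMP-like (36.8% and 35.3%) and monocyte-like cells (36.9% and 36.1%), among others. It was higher in HSC/MPP-like (41.8% and 45.9%), megakaryocyte-like (36.5% and 43.4%) and lymphoid progenitor-like cells (39.4% and 56.6%), among others.

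The share of Hba-a2 among alpha UMIs went the other way between the libraries. It was higher in cKO in 9 of 9 stages, with intervals apart in 6, and in 7 of 7 marker ranges, with intervals apart in 6. The limits given for the counts of Hbb-bt apply here too. Without the 3 richest cells of each library the Hba-a2 share was higher in cKO in 8 of 9 stages and turned in stage 9, at 44.2% in WT and 42.7% in cKO. With all cells, in stage 7 it was 16.2% in WT and 18.0% in cKO, in stage 8 19.5% and 20.3%, and in stage 9 41.8% and 42.3%. The same direction held in the pool of non-erythroid cells with under 100 haemoglobin UMIs, at 24.9% in WT and 28.0% in cKO. By class it held in all but lymphoid progenitor-like cells (26.6% and 24.5%) and macrophage-like cells (33.1% and 26.5%, from 19 cKO cells). Free RNA from erythroid cells can carry such UMIs, and their source was not tested. Alpha and beta were also not in constant proportion. Alpha genes made up 55.2% of haemoglobin UMIs in stage 5 of WT and 41.7% in stage 8, against 55.4% and 40.2% in cKO. With 3′ reads that the alpha copies partly share, these are shares of assigned UMIs, not of transcripts.

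**Figure D4:**
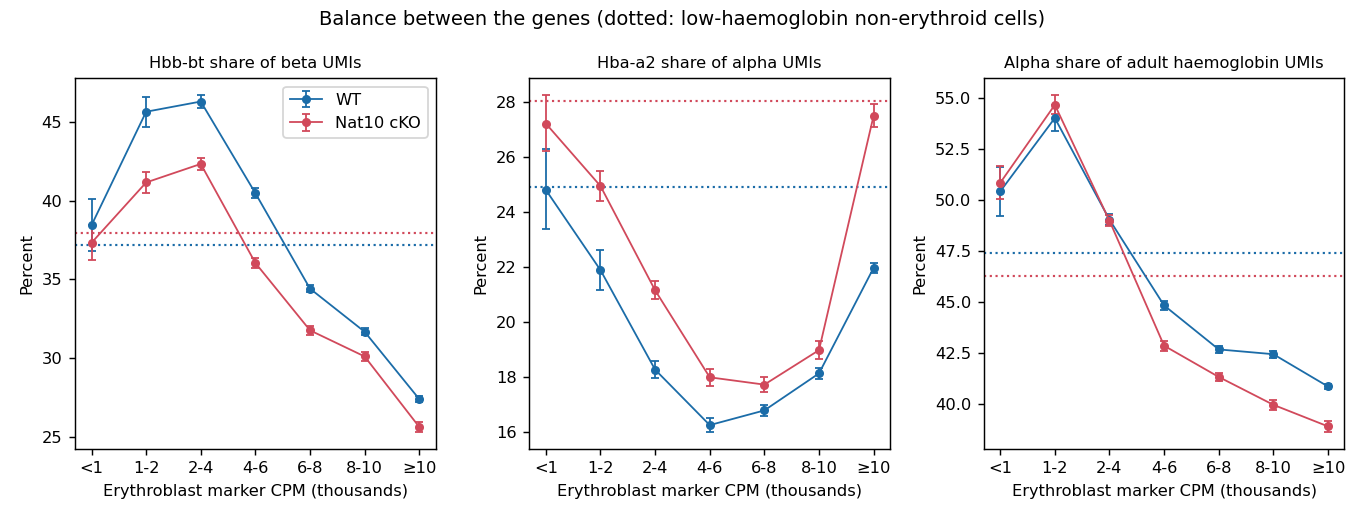
Share in percent of Hbb-bt among beta UMIs, of Hba-a2 among alpha UMIs and of alpha among adult haemoglobin UMIs in erythroid cells of 7 ranges of erythroblast marker CPM, with exact binomial 95% intervals, WT in blue and Nat10 cKO in red, and non-erythroid cells with under 100 haemoglobin UMIs as dotted lines. Hbb-bt was lower and Hba-a2 higher in cKO in all 7 ranges; the axes do not start at 0.

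Nearly every non-erythroid cell carried haemoglobin UMIs. A haemoglobin UMI was found in 99.2% of 5674 WT cells and 97.6% of 4585 cKO cells of the 15 non-erythroid classes, with medians of 8 and 7 UMIs per cell at median depths of 21706.5 and 19367 UMIs. With each cell thinned to 2000 UMIs the share was 58.0% in WT and 57.1% in cKO, with 416 and 273 shallower cells left out. All 768 WT and 386 cKO erythroblast-like cells thinned in the same way kept a haemoglobin UMI; their median depths were 24112.5 UMIs in WT and 19630 in cKO. Whether any of these UMIs were made by the cells themselves was not tested. The shares are used as the background against which low levels in other cells are read. HSC/MPP-like cells were at 400.0 CPM in WT and 407 in cKO, GMP-like cells at 372 and 350.5, and monocyte-like cells at 373 and 394. Stage 1 of the erythroid clusters, at 362 and 328 CPM, lay at that background.

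The background grew with depth, but much less than in proportion. Cells of 1000 to 2000 UMIs had a median of 3 haemoglobin UMIs in WT and 2 in cKO. Cells of 10000 to 20000 UMIs had 6 in both, and cells of at least 40000 had 16 and 15. The median level per cell fell from 2415 CPM in WT and 1756 in cKO at the lowest depth to 323 and 311 at the highest. A level in CPM is therefore not comparable between shallow and deep classes, such as WT eosinophil-like cells, at 1405 CPM with a median of 2024 UMIs, and cKO eosinophil-like cells, at 679 CPM with a median of 12990.5.

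**Figure D5:**
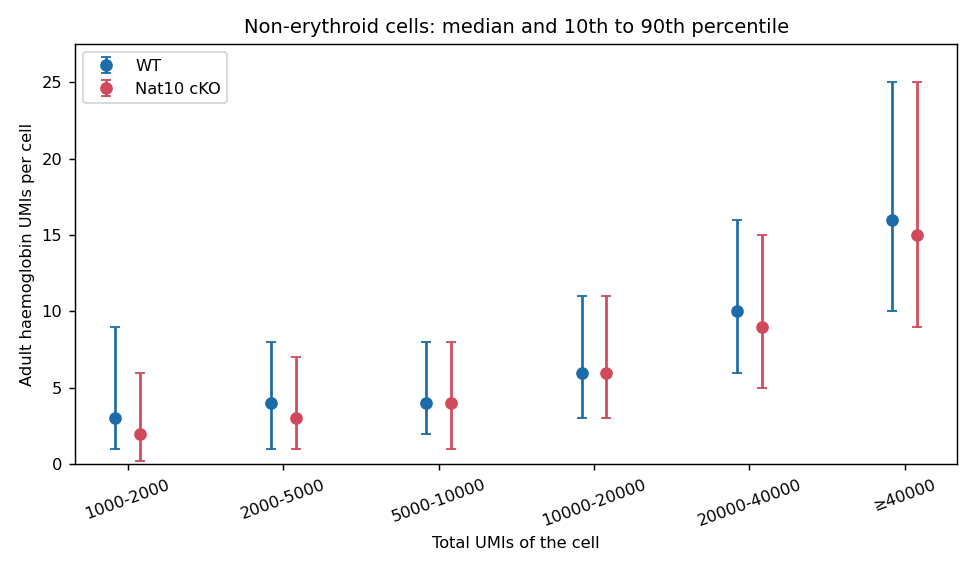
Adult haemoglobin UMIs per non-erythroid cell against the cell's total UMIs, as medians (points) with the 10th to 90th percentile (bars), WT in blue and Nat10 cKO in red. The medians rise from 3 and 2 in the shallowest cells to 16 and 15 in cells of at least 40000 UMIs.

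A small number of non-erythroid cells stood far above this background. In WT 40 cells and in cKO 27 had at least 100 haemoglobin UMIs, with a highest count of 2849 and 1057. All 19 erythroblast markers had UMIs in these cells too, summed at 2783 CPM in WT and 2014 in cKO, against 274 and 250 CPM in the cells under 100, and their part in the result was not tested. WT macrophage-like cells had the most, with 12 of 155 cells at 100 or more and a class level of 11032 CPM, and 3 cells held 44.0% of it. In cKO the class had 19 cells, none of them at 100 or more. The WT macrophage-like haemoglobin was 23.1% Hbb-bt among beta and 35.5% Hba-a2 among alpha, next to 22.3% and 41.8% in WT stage 9 and 30.5% and 19.5% in WT stage 8. Over all non-erythroid classes the level was 589 CPM in WT and 497 in cKO, a log2 ratio of -0.24, which became 0.02 without macrophage-like cells and -0.03 without the cells of at least 100 haemoglobin UMIs.

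Other globin genes were almost silent. Hbq1b, a theta-like globin gene, was at 20.3 CPM in WT and 18.7 in cKO erythroblast-like cells. Hba-x, the embryonic zeta gene, had 107 UMIs in all kept WT cells and 59 in cKO, of which 72 and 47 lay in erythroid progenitor-like cells, a log2 ratio there of -1.11 (-1.68 to -0.57). Hbb-y, an embryonic beta-like gene, had 23 and 35 UMIs, and Hbb-bh1 had 3 and 6. The adult beta gene Hbb-bs alone had 439034 UMIs in WT erythroblast-like cells.

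The genes around haemoglobin are given by lists that were drawn up with earlier results of these data known. Among all genes measured in erythroblast-like cells, 39.9% were higher in cKO, and the counts of the lists are to be read beside that share. There 3 of 9 haem synthesis genes were higher in cKO, with a median log2 ratio of -0.05. Urod, an enzyme of the middle of the pathway, was at 0.16, Fech, which inserts iron, at -0.16, and Alas1, the housekeeping first enzyme, at -0.78 from 208 and 48 UMIs. Of 13 iron genes 6 were higher and the median was -0.10, with Tmem14c, a porphyrin transporter, at 0.36, Ftl1, a ferritin chain, at 0.33, Slc11a2, an iron importer, at -0.20 and Slc40a1, the iron exporter, at -0.21. Of 15 globin gene transcription factors 8 were higher and the median was 0.02. Gata1 was at 0.14, Gata2 at 0.68 from 44 and 28 UMIs, Tal1 at -0.23, and Sox6, which acts in silencing embryonic globin genes, at -0.36. No gene measured in these lists passed a log2 ratio of 1 in erythroblast-like cells.

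Beside the 39.9% of all genes, of 13 red cell membrane genes 2 were higher, among them Rhd at 0.14, and the median was -0.11, with the membrane anchor Ank1 at -0.25 and the anion exchanger Slc4a1 at -0.19. Of 9 redox and red cell enzymes 6 were higher and the median was 0.07, with Bpgm at 0.44, Blvrb at 0.33, Sod1 at -0.29 and the carbonic anhydrase Car1 at -0.46. Of 5 measured haem sensing genes 2 were higher and the median was -0.09, with Ppp1r15a at 0.15, Ube2o at 0.04, the haem-regulated kinase Eif2ak1 at -0.10 and Atf4 at -0.13. Of 6 genes for proteins that bind globin or other messages 1 was higher, Ybx1 at 0.20, and the median was -0.21, with Pabpc1 at -0.10, Pabpc4 at -0.29 and Msi2 at -0.44. Against these medians the 4 haemoglobin genes had a median of 0.10, and all genes -0.06.

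In erythroid progenitor-like cells the scaling by trimmed mean of M values (TMM) shifted all ratios up by 0.11, and the values here are relative to it. They are not adjusted for the mix of clusters, which took the haemoglobin sum from -0.50 to 0.02, and its part in the lists was not tested. The 4 haemoglobin genes had a median of -0.37 and all genes of 0.03. The red cell membrane genes had a median of -0.25, the haem sensing list -0.08 and the list of message-binding proteins -0.07. Haem synthesis genes had a median of -0.01, iron genes -0.02, transcription factors 0.05 and redox enzymes 0.03. Before this scaling the last 2 medians were -0.06 and -0.08. Also before it, 37.3% of all 6351 genes were higher in cKO. Beside that share, 0 of 13 membrane, 0 of 6 haem sensing and 1 of 6 message-binding genes were higher. For haem synthesis it was 1 of 9, for iron genes 5 of 13, for transcription factors 6 of 15 and for redox enzymes 2 of 9. Past a log2 ratio of -1 before scaling were Sox6, at 325 CPM in WT and 156 in cKO, Hba-x (above), and Hmox1, which degrades haem, with 118 and 39 UMIs. After it Sox6 was at -0.94 and Hba-x just short of the threshold, while Hmox1 was at -1.97. Hmox1 was also a macrophage marker, and macrophage-like cells were 155 in WT and 19 in cKO; the part of their RNA in the Hmox1 value was not tested.

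Genes were also ranked by how closely their levels followed haemoglobin. Over 60 points, 30 clusters in each of 2 libraries, the correlation of log2 levels across 7073 genes was highest for Epb42, at r = 0.918, Slc4a1 at 0.910, Dmtn at 0.896 and Sec14l2 at 0.890. Sox6, Fam210b, Hemgn, Uros and Carhsp1 were also among the 10 highest, between 0.855 and 0.844. The points of a library share its free RNA and its depth, and Epb42, Slc4a1 and Hemgn were among the markers that ordered and named the clusters, so the correlations are a description.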

How the data were processed

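Single-cell RNA sequencing was deposited for 1 WT and 1 Nat10 cKO library. The deposited values are raw UMI counts per gene and barcode, made by the authors with Cell Ranger 7.1.0 on mm39, per the submitters' processing notes; the kit was a 3′ version, per the labels' protocols. The settings of Cell Ranger for reads shared by gene copies are not stated in the labels. The members and lists were chosen with earlier results of these data known.

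Barcodes were kept at 1000 UMIs, 500 genes and 10% mitochondrial UMIs, and doublets were called once per library with Scrublet in scanpy 1.11.5, 592 in WT (4.72%) and 544 in cKO (4.84%); the number called varied with the random seed. Cells of both libraries were scaled to 10000 UMIs, reduced from 2000 variable genes without globin genes to 30 components and clustered by Leiden at resolution 1.5. Clusters were named where at least 3 markers of a class were detected. Levels are UMIs summed over cells per 1000000 UMIs, with exact Poisson intervals; shares have exact binomial intervals. Log2 ratios add 0.5 UMI to each sum and carry an exact conditional interval. With 1 library per genotype no test was run. Genes entered the fold comparison at a mean of 20 CPM and 100 UMIs; list members at 50 UMIs. The text names all members, other globins and, per list, the 2 highest and 2 lowest ratios in erythroblast-like cells, and the 10 genes most correlated with haemoglobin; other names were chosen after their values were seen. Some genes this rule names are not reported here. TMM came from edgeR 4.0.16. Ratios and intervals were tested on simulated data. Alternatives were scaling, barcode filters, doublets, clustering, cell weights and cluster mix. Intervals cover counting error only.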

Additional observations from a re-analysis of the deposited data

Results flagged for a closer look

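Haemoglobin was high in barcodes that the depth filter leaves out. In the 1173 cKO barcodes under 1000 UMIs or 500 genes the 4 genes were at 45225 CPM, against 21020 CPM in the 2578 WT barcodes, above the control and outside the cells compared in the report. Of these barcodes, 1080 in cKO and 2533 in WT had under 100 haemoglobin UMIs and held 6519 and 12044 of such UMIs. The CPM of each library counts them too, so it also depends on their number. The other 93 in cKO (7.93%) and 45 in WT (1.75%) had at least 100 haemoglobin UMIs and held 32553 and 28677. The 4 genes made up 36.6% and 48.4% of all UMIs of those. Their Hbb-bt share of beta was 19.8% in cKO and 22.0% in WT and their Hba-a2 share of alpha 36.8% and 41.5%, next to 20.3% and 22.3%, and 42.3% and 41.8%, in stage 9. They held 68.7 haemoglobin UMIs per erythroblast marker UMI in cKO and 57.4 in WT, against 7.37 and 6.54 in erythroblast-like cells. What these barcodes are was not tested.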

How the results depend on the processing

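The lower level of the sum in all kept cells kept its direction under the 8 alternatives run on it, and the difference in erythroblast-like cells did not keep its own. Values are log2 ratios of cKO over WT for the sum of the 4 genes unless a gene is named, and those not given below stayed within the counting interval. Dividing by totals without haemoglobin left all of them within it. The cause of the shifts was not tested, beyond that the other clusterings and filters redraw the classes by construction. With TMM scaling, all kept cells gave -0.64. Erythroblast-like cells gave 0.11 for the sum, 0.021 for Hba-a1, 0.18 for Hba-a2, 0.19 for Hbb-bs and 0.080 for Hbb-bt. Progenitor-like cells gave -0.39 for the sum, -0.46 for Hba-a1, -0.17 for Hba-a2, -0.28 for Hbb-bs and -0.51 for Hbb-bt. Non-erythroid classes gave -0.21. With median-of-ratios scaling, all kept cells gave -0.66. Erythroblast-like cells gave 0.11 for the sum, 0.016 for Hba-a1, 0.18 for Hba-a2, 0.18 for Hbb-bs and 0.075 for Hbb-bt. Progenitor-like cells gave -0.40 for the sum, -0.47 for Hba-a1, -0.17 for Hba-a2, -0.29 for Hbb-bs and -0.52 for Hbb-bt. Non-erythroid classes gave -0.22. With called doublets kept, all kept cells gave -0.75. Erythroblast-like cells gave -0.31 for the sum, -0.37 for Hba-a1, -0.25 for Hba-a2, -0.26 for Hbb-bs and -0.32 for Hbb-bt. Progenitor-like cells gave -0.24 for the sum, -0.31 for Hba-a1, 0.022 for Hba-a2, -0.099 for Hbb-bs and -0.41 for Hbb-bt. Non-erythroid classes gave -0.18. With the looser filter of 500 UMIs, all kept cells gave -0.71. Erythroblast-like cells gave -0.27 for the sum, -0.34 for Hba-a1, -0.21 for Hba-a2, -0.22 for Hbb-bs and -0.28 for Hbb-bt. Progenitor-like cells gave -0.48 for the sum, -0.52 for Hba-a1, -0.17 for Hba-a2 and -0.65 for Hbb-bt. With the stricter filter of 2000 UMIs, 1000 genes and 5% mitochondrial UMIs, all kept cells gave -0.79. Erythroblast-like cells gave -0.27 for the sum, -0.32 for Hba-a1, -0.27 for Hba-a2, -0.24 for Hbb-bs and -0.26 for Hbb-bt. Progenitor-like cells gave -0.24 for the sum, -0.29 for Hba-a1, 0.013 for Hba-a2, -0.13 for Hbb-bs and -0.41 for Hbb-bt. Non-erythroid classes gave 0.015. With every cell weighing alike, all kept cells gave -0.21. Erythroblast-like cells gave 0.22 for the sum, 0.074 for Hba-a1, 0.36 for Hba-a2, 0.33 for Hbb-bs and 0.14 for Hbb-bt. Progenitor-like cells gave -0.11 for the sum, -0.25 for Hba-a1, 0.019 for Hba-a2, 0.054 for Hbb-bs and -0.20 for Hbb-bt. Non-erythroid classes gave -0.19. With the WT mix of clusters, all kept cells gave -0.14. Erythroblast-like cells gave 0.057 for the sum, -0.026 for Hba-a1, 0.097 for Hba-a2, 0.12 for Hbb-bs and 0.032 for Hbb-bt. Progenitor-like cells gave 0.020 for the sum, -0.072 for Hba-a1, 0.15 for Hba-a2, 0.16 for Hbb-bs and -0.088 for Hbb-bt. Non-erythroid classes gave -0.28. At Leiden resolution 1, erythroblast-like cells gave -0.13 for the sum, -0.21 for Hba-a1, -0.065 for Hba-a2, -0.059 for Hbb-bs and -0.17 for Hbb-bt. Progenitor-like cells gave -0.093 for the sum, -0.18 for Hba-a1, 0.085 for Hba-a2, 0.055 for Hbb-bs and -0.22 for Hbb-bt. At Leiden resolution 2.5, erythroblast-like cells gave -0.15 for the sum, -0.23 for Hba-a1, -0.10 for Hba-a2, -0.085 for Hbb-bs and -0.16 for Hbb-bt. Progenitor-like cells gave -0.46 for the sum, -0.50 for Hba-a1, -0.18 for Hba-a2 and -0.36 for Hbb-bs. With haemoglobin genes kept in the clustering, erythroblast-like cells gave -0.17 for the sum, -0.24 for Hba-a1, -0.088 for Hba-a2, -0.11 for Hbb-bs and -0.20 for Hbb-bt. Progenitor-like cells gave -0.21 for the sum, -0.26 for Hba-a1, 0.027 for Hba-a2, -0.14 for Hbb-bs and -0.34 for Hbb-bt. Without the shallow cluster of each class, erythroblast-like cells gave 0.015 for the sum, -0.053 for Hba-a1, 0.018 for Hba-a2, 0.073 for Hbb-bs and 0.0035 for Hbb-bt. Progenitor-like cells gave -0.55 for the sum, -0.62 for Hba-a1, -0.33 for Hba-a2, -0.46 for Hbb-bs and -0.67 for Hbb-bt. Without macrophage-like cells, non-erythroid classes gave 0.020. Without cells of 100 or more haemoglobin UMIs, non-erythroid classes gave -0.030. The last 3 of these alternatives were chosen after seeing the data. With no floor on counts, so that genes of a few UMIs enter, the number of genes past a log2 ratio of 1 in either direction went from 7 to 4536 in erythroblast-like cells and from 10 to 7461 in progenitor-like cells. The same 10 genes were most like haemoglobin with a pseudocount of 10 CPM. With called doublets kept, the Hbb-bt share of beta stayed within its counting interval in 17 of 32 values by class and library and the alpha share in 19 of 32. Called doublets had a median of 33778.5 UMIs in WT but 3886 in cKO, below the 21450 of kept cKO cells, so it is in doubt whether the caller worked in the cKO library. No paired analysis was possible because each genotype has 1 library. Depth limits what low levels show, since cells of non-erythroid classes carry haemoglobin UMIs.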

Other observations

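Kept cells in clusters that no marker list named numbered 2854 in WT and 1792 in cKO. Adult haemoglobin was at 2603 CPM in these WT cells and 2448 in the cKO cells, with a median of 5 haemoglobin UMIs per cell in both. Barcodes left out for over 10% mitochondrial UMIs were at 2375 CPM in WT and 1738 in cKO.

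The beta balance of HSC/MPP-like cells was picked out of 15 non-erythroid classes after the values were seen. There Hbb-bt made up 41.8% of beta UMIs in WT (40.3% to 43.4%) and 44.8% in cKO (43.1% to 46.5%), against 37.2% and 38.0% in all non-erythroid cells with under 100 haemoglobin UMIs, a set that holds cells of this class too. With called doublets kept it made up 39.4% and 42.7%. The intervals cover counting error only.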
